A study of Homo sapiens with 9 samples.

Results

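MCF10A cells carrying an empty retroviral vector and held without EGF were given EGF at 50 ng/ml for 2 h, and their RNA was compared with that of vector cells left without it. MCF10A is an established line of human breast epithelium, immortalized but not tumour-forming, that depends on added EGF for growth. The comparison rests on the 3 arrays titled as EGF stimulation and the 3 titled as vector control, which are 6 of the 9 arrays in the series. All cells had been infected with a pBabe retrovirus, empty in the vector and EGF groups and encoding ErbB2 in the third group, which is called labelled ERBB2 below. The line's routine medium held hydrocortisone, cholera toxin, insulin, EGF at 20 ng/ml and 5% horse serum. After infection every group was kept on 2% horse serum with EGF left out. The titles number the replicates as biological but nothing says that they were infected separately, so the p-values below reflect only how much these arrays vary, which may be technical.

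EGF binds the receptor tyrosine kinase EGFR, which feeds the RAS, RAF, MEK and ERK kinase cascade and the PI3K and AKT pathway. ERK switches on immediate early genes, which need no new protein, and the delayed early genes that follow include phosphatases and adaptor proteins that turn ERK down again. AKT keeps FOXO transcription factors out of the nucleus, which lowers FOXO target genes of cell cycle exit and starvation.

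The measured quantity was the authors' linear signal intensity of each probe set, and a change is the EGF mean minus the vector mean of log2(signal + 16), given with its standard error (SE). Values from arrays are listed in the order of replicates 1, 2 and 3, a mean carries its SD over n = 3, and where 2 means stand in brackets the vector mean is first. The 16 added to each signal understates the change of dim genes. A gene is called where the Benjamini-Hochberg adjusted p of limma's moderated test over 32768 probe sets was under 0.05, and "rose" and "fell" are used of called genes alone. Each gene is represented by the highest-signal probe set that the platform's annotation assigns to it and to no other gene. Of 13726 genes tested this way, 2357 rose (17.2%) and 2595 fell (18.9%), the shares against which each gene list is set below. The 3 EGF values were all above the 3 vector values in 21.1% of genes and all below them in 27.5% (48.7% in all). Calls of either direction made up 36.1% of genes, and calls of at least 2-fold 6.45% (5.18% of probe sets), with 455 genes rising and 430 falling, at least 4-fold ones in 47 and 38, and at least 8-fold ones in 13 and 5. The median change of all genes was -0.10, so small falls are relative to the authors' scaling of the arrays. Among called probe sets 44.8% rose, and this share was 63.3% when the arrays were set to equal medians and 51.7% after quantile normalization.

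The arrays fell into their groups: each correlated best with an array of its own group, with r on the log2 scale from 0.972 to 0.974 among vector arrays, 0.977 to 0.981 among EGF arrays and 0.954 to 0.958 between them. EGF arrays had lower median signals, 15.6 to 16.9 against 19.9 to 20.2, and more probe sets under a signal of 16, 48.6% to 50.6% against 44.6% to 44.7%. The ACTB control's 5′ signal over its 3′ signal was 0.379 ± 0.055 (SD, n = 3) in vector arrays and 0.444 ± 0.063 in EGF arrays. The 5′ control for 18S ribosomal RNA read 13312 ± 1514 and 9266 ± 811. The part of these differences in the results was not tested. The summed signal of 10 mammary epithelial markers was 41420 to 46750 in vector and 40860 to 46760 in EGF arrays. Of 8 fibroblast markers 5 had means under 16 in both groups, and their sum went from 1373-1544 to 538-589, most of it in DCN, decorin (1345 and 433), which fell (-1.60 ± 0.11). In bulk RNA, fewer cells of a type and less RNA per cell cannot be told apart. Of 7 blood and endothelial markers 4 had means under 16, and their sum lay at 244 to 267 and 267 to 288.

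Among the transcription factors of the immediate early class, EGR1 had the largest change. EGR1, a zinc finger factor induced by serum and growth factors, read 128, 145 and 160.3 in the vector arrays and 2197, 2192 and 2133 in the EGF arrays. Every EGF array was far above every vector array, a change of 3.77 ± 0.11 (SE; limma adjusted p = 2.28e-15). Its promoter, from RefSeq (GRCh38.p14, chr5:138465229-138465478, plus strand), holds 2 CArG boxes, the sequence bound by serum response factor (SRF). It is shown because EGR1 led the class and because these boxes are few among the genes measured. The 250 bases before the transcription start are given 5′ to 3′, with the boxes in capitals, 105 to 96 and 83 to 74 bases before the start.
EGR1: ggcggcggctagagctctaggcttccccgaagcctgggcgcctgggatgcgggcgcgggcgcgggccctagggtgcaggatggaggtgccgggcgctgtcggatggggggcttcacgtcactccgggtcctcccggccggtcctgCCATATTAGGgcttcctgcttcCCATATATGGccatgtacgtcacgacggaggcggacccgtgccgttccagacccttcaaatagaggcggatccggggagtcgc

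The search covered 250 bases upstream of the start on both strands for the CArG box, the cyclic AMP response element TGACGTCA, the AP-1 site TGANTCA, the forkhead site GTAAACA and the E-box CACGTG. Promoters were found by symbol for 11052 of the 13726 genes, and 1.02% of them hold a CArG box. Among 42 promoters of the 4 immediate early lists 3 do (7.14%), those of EGR1, SRF and RND3, and of these genes only EGR1 rose. Among the 17 promoters of listed genes that rose, 1 held a CArG box (5.88%). The E-box was in 16.7% of the 42, against 8.68% of promoters of tested genes. RND3 was not called (0.04). SRF itself was not called and stood at 89.0 and 107 (0.24, adjusted p = 0.24). After EGR1, among transcription and feedback genes with a promoter found, the largest changes with a searched motif were in DUSP2 and BHLHE40. Each held an E-box, 113 to 108 and 245 to 240 bases before the start. Among 366 promoters of genes that rose at least 2-fold, 1.37% held a CArG box, 4.37% the cyclic AMP element (2.75% of all tested), 3.01% the AP-1 site (4.14%), 1.09% the forkhead site (2.05%) and 10.4% the E-box (8.68%). Such a match describes letters and shows no binding.

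The remaining EGR, NAB and NR4A genes moved less. Of 11 tested 5 rose and none fell (1 without vector replicate 1 or 2), beside 17.2% and 18.9% of all genes, with a median change of 0.26. EGR3, a relative of EGR1, read 16.2, 14.2 and 16.9 without and 74.8, 59.4 and 59.9 with EGF (1.34 ± 0.28, adjusted p = 9.28e-04), so its groups did not overlap. NAB2, a corepressor that EGR proteins induce and that restrains them, rose from 66.6 ± 7.20 to 118 ± 10.8 (0.70 ± 0.19). ELK3, an ETS partner of SRF, rose from 727 ± 9.58 to 952 ± 37.0 (0.38), with an uncalled second probe set at -0.13. ELK4, another such partner, was at 0.35, a call lost without EGF replicate 1, without vector replicate 2 and without a variance trend (highest adjusted p 0.091). The orphan receptors NR4A1 (12.8 and 15.2) and NR4A2 (25.7 and 35.0) were not called, nor was EGR4 (43.1 and 25.2). Another, dimmer probe set of NR4A2 was called higher (0.85, adjusted p = 0.028). NR4A3 did not pass the filter on low values, and EGR2 had no probe set assigned to it alone.

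The AP-1 genes, which encode the FOS, JUN and MAF proteins that bind DNA in pairs, split by member. Of 10 tested 4 rose and 2 fell. FOSL1, a FOS relative that accumulates under sustained ERK activity, read 56.1, 66.2 and 49.8 in vector arrays and 251, 237 and 237 in EGF arrays. The groups stood clearly apart (1.82 ± 0.13, adjusted p = 2.07e-09). FOS, the best known immediate early gene, read 327, 237 and 259.9 without EGF and 521, 572 and 616 with it. Every EGF array was higher (1.02 ± 0.14, adjusted p = 8.12e-06). JUNB, a JUN relative, rose from 177 ± 34.4 to 285 ± 36.4 (0.65), and the small MAF protein gene MAFF from 644 ± 10.7 to 948 ± 37.7 (0.55). FOSL2 went the other way, with 1524, 1592 and 1579 in vector and 482, 372 and 439 in EGF arrays (-1.83 ± 0.11, adjusted p = 2.12e-10). All 4 of its other probe sets had the same sign. JUND, the JUN member usually expressed in resting cells, fell from 1294 ± 116 to 732 ± 32.5 (-0.81). JUN (319 and 368; 0.19, adjusted p = 0.26) and ATF3 (29.8 and 24.3) were not called by their highest-signal probe set, and FOSB did not pass the filter. Of the 3 other probe sets of JUN 1 was called higher, from 81.2 to 152 (0.79, adjusted p = 4.48e-04), with groups that did not overlap.

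**Figure D1:**
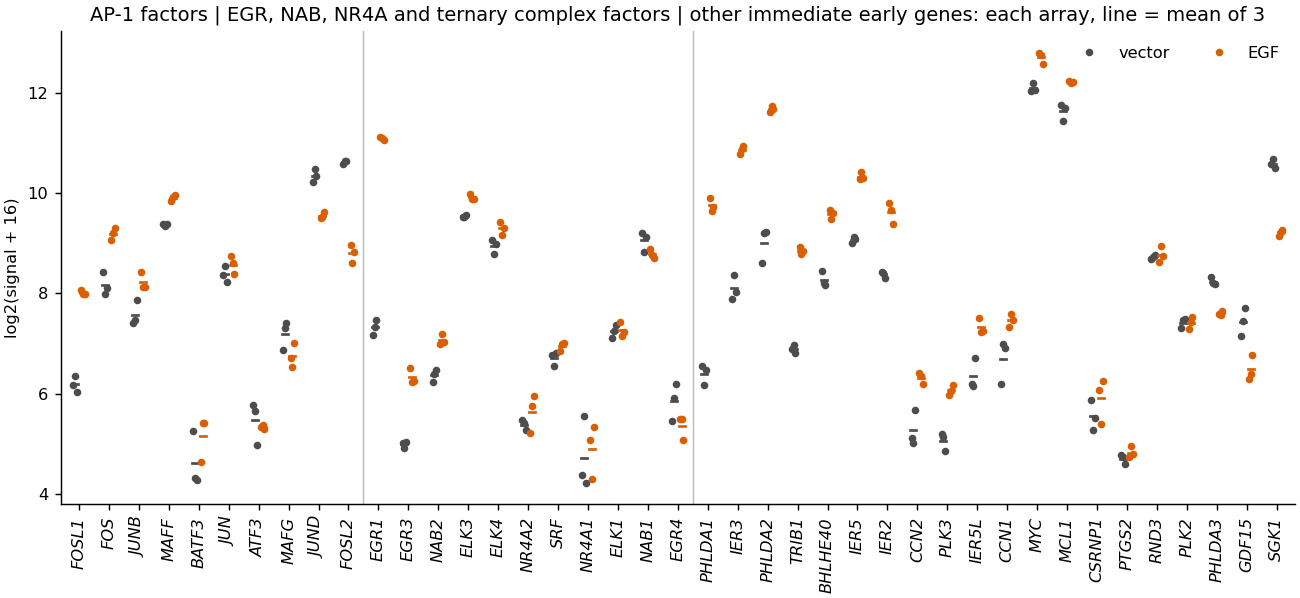
Signals of immediate early genes on the 3 vector (grey) and 3 EGF (orange) arrays, as log2(signal + 16), with a line at the mean of 3. Panels from left hold the AP-1 factors, the EGR, NAB, NR4A and ternary complex factors, and other immediate early genes, each ordered by change. EGR1, PHLDA1, IER3 and PHLDA2 show the widest gaps, and FOSL2 and SGK1 lie lower with EGF.

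Of 20 further genes listed as immediate early 13 rose and 3 fell, with a median change of 0.87. The 13 and 3 were the same counts under all 19 alternatives. PHLDA1, a pleckstrin homology domain protein, read 78, 55.7 and 72.7 without EGF and 948, 783 and 829 with it (3.36 ± 0.13, adjusted p = 1.96e-13). Its relative PHLDA2 read 372, 577 and 579 without EGF and 3122, 3409 and 3276 with it (2.67 ± 0.12). IER3, a regulator of survival, read 222, 316 and 244 without EGF and 1748, 1863 and 1949.9 with it (2.77 ± 0.10). In each of these the lowest EGF array was well above the highest vector array. TRIB1, a pseudokinase that targets proteins for degradation, rose from 103 ± 6.65 to 447 ± 25.2 (1.96). BHLHE40, a repressor of clock and other genes, rose from 295 ± 33.9 to 753 ± 50.7 (1.31), IER5 from 520.1 ± 21.2 to 1274 ± 69.8 (1.27) and IER2 from 317 ± 14.6 to 774 ± 113 (1.24). Smaller rises were called in the matrix proteins CCN2 (1.05) and CCN1 (0.77), the kinase PLK3 (1.0) and IER5L (0.98). MYC, whose product drives growth genes, was already at 4200.0, 4697 and 4231 in the vector arrays and rose to 7127, 6938 and 6108 (0.62 ± 0.09, adjusted p = 1.47e-05).

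The 3 falls in this list were in SGK1, GDF15 and PHLDA3, whose place among immediate early genes was set by the list and not examined. SGK1, an AKT-related kinase also induced by glucocorticoids, read 1517, 1621 and 1425 without EGF and 554, 585 and 599 with it (-1.37 ± 0.09, adjusted p = 5.08e-10). GDF15, a stress cytokine, went from 158 ± 33.3 to 74.6 ± 16.4 (-0.94), and PHLDA3, an inhibitor of AKT, from 286 ± 17.2 to 178 ± 5.72 (-0.63). PTGS2, the inducible cyclooxygenase, stood at 9.98 and 12.4 and was not called.

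Krueppel-like factors, zinc finger proteins that often mark resting or differentiating cells, included 6 falls and 3 rises among 14 tested. KLF9, a glucocorticoid-induced member, read 347, 357 and 348 without EGF and 108, 139.9 and 113 with it (-1.43 ± 0.15). KLF4 read 267, 306 and 311 without EGF and 111, 118 and 121 with it (-1.23 ± 0.14). Neither gene's groups overlapped. KLF15 (-1.22), KLF8 (-1.12) and KLF3 (-0.66) fell as well, and KLF12 did so (-0.64) except without vector replicate 2 (adjusted p = 0.062). KLF7 rose from 172 ± 7.76 to 352 ± 22.9 (0.97). KLF6 (0.27) and KLF11 (0.52) made up the 3 rises, but their calls were lost under 2 and 7 of the 19 alternatives. For KLF6 these included leaving out vector replicate 3, and for KLF11 leaving out EGF replicate 1 or 3 or any vector array (highest adjusted p 0.091 and 0.19), so that without vector replicate 3 the rises numbered 1. KLF10, an early TGF-beta target, stood at 809 and 860.0.

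Among feedback inhibitors of ERK, DUSP6 had the largest change of any gene tested. DUSP6, a cytoplasmic phosphatase that removes the activating phosphates from ERK, read 1.01, 15.5 and 11.8 in the vector arrays and 2601, 2737 and 3030.3 in the EGF arrays. The gene lay under the 16 added to each signal in every vector array and far above it in every EGF array. Its fitted change was 6.83 ± 0.18 (adjusted p = 1.11e-15), which depends on the value added and ran from 5.28 to 8.53 over the alternatives. DUSP4, a nuclear phosphatase of the same family, read 135, 92.3 and 119 without EGF and 611, 621 and 678 with it (2.32 ± 0.12). DUSP5, which acts on nuclear ERK, read 41.5, 42.8 and 42.8 without EGF and 218, 173 and 179.6 with it (1.81 ± 0.14). DUSP7, a cytoplasmic phosphatase like DUSP6, read 177, 221 and 218 without EGF and 776, 746 and 739.5 with it (1.80 ± 0.12). DUSP2 went from 3.70 ± 0.754 to 44.7 ± 5.68 (1.62), and none of these 5 genes had overlapping groups.

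Other phosphatases fell or were not called. DUSP10, which acts on p38 and JNK, read 255, 251 and 258 without EGF and 109, 111 and 118 with it (-1.07 ± 0.26, adjusted p = 0.0037, and 0.051 without a variance trend). DUSP14 fell from 521 ± 33.3 to 358 ± 14 (-0.52). DUSP1, an immediate early phosphatase that also responds to glucocorticoids, was at 6888, 7215 and 7496 without and 5988, 6057 and 5991 with EGF (-0.26). Its call was lost with equal array medians, quantile normalization or no variance trend (highest adjusted p 0.13). DUSP8, DUSP9 and DUSP16 were not called. In all, 5 of 11 phosphatase genes rose and 3 fell (1 without a variance trend).

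Of 11 Sprouty, SPRED and other ERK inhibitor genes 7 rose and 1 fell, with a median change of 0.52, and 2 fell without vector replicate 2 or labelled ERBB2 replicate 1. SPRY4, a membrane adaptor that blocks signalling from receptors to RAS and RAF, read 22.3, 14.4 and 4.03 without EGF and 246, 223 and 221 with it (3.11 ± 0.19, adjusted p = 3.28e-10). SPRED1, which brings the RAS inhibitor neurofibromin to the membrane, read 53.4, 46.8 and 42.7 without EGF and 301, 291 and 273 with it (2.26 ± 0.16). SPRED2 read 67.4, 88.3 and 50.4 without EGF and 223, 192 and 257 with it (1.52 ± 0.16). The 3 groups of EGF values all lay above the vector values. IL17RD, known as SEF and an inhibitor of MEK output, rose from 29.2 ± 2.28 to 59.9 ± 1.69 (0.75), and the RAS GTPase activating protein RASA2 from 246 ± 6.61 to 361 ± 35.3 (0.52). SPRY1 (0.58) and SPRY2 (0.39) rose too, but SPRY1 lost its call without EGF replicate 2 or 3, without vector replicate 1 or 3 and with no filter. SPRY2 lost it without EGF replicate 2, without vector replicate 2 and without a variance trend (highest adjusted p 0.088 and 0.071). RGS2, a brake on G protein signalling, read 2165, 2189 and 2035 without EGF and 591, 531 and 610.1 with it and was the member that fell (-1.86 ± 0.09, adjusted p = 6.74e-12).

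The ETS factors divided. ETV5 and ETV4, PEA3 factors that ERK induces, went from 20.8, 8.30 and 11.7 to 128, 90.9 and 128 (2.16 ± 0.18) and from 6.78, 2.58 and 6.48 to 42.5, 40.9 and 47.2 (1.49 ± 0.21). ETV1, the remaining PEA3 factor, had a change of 0.74, a call lost under 8 of the 18 alternatives that tested it, among them leaving out any EGF array or vector replicate 1 or 2 (highest adjusted p 0.17). ETS1 was at 0.46, lost under 5, including without EGF replicate 1 or vector replicate 1 or 3 (highest 0.25). Other probe sets of both genes were called higher, for ETV1 at 1.70 (adjusted p = 3.96e-05) and 1.10 (0.0064), and for ETS1 at 1.03 (3.20e-04). Both also had another probe set that was not called, at 0.25 for ETV1 and 0.26 for ETS1. EHF, an epithelial ETS factor, read 1653, 1767 and 1620.4 without EGF and 281, 311 and 352 with it (-2.36 ± 0.11, adjusted p = 4.30e-12). Its relative ELF3 read 161, 136 and 154 without EGF and 21.7, 20.6 and 11 with it (-2.32 ± 0.21). ETS2 read 1605, 1650.3 and 1538 without EGF and 478, 398 and 469.9 with it (-1.80 ± 0.13). These 3 genes fell with wide gaps between the groups, and all 9 of their other probe sets fell too. Of 10 ETS genes 4 rose and 3 fell, with 2 rises without EGF replicate 1 or vector replicate 1.

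**Figure D2:**
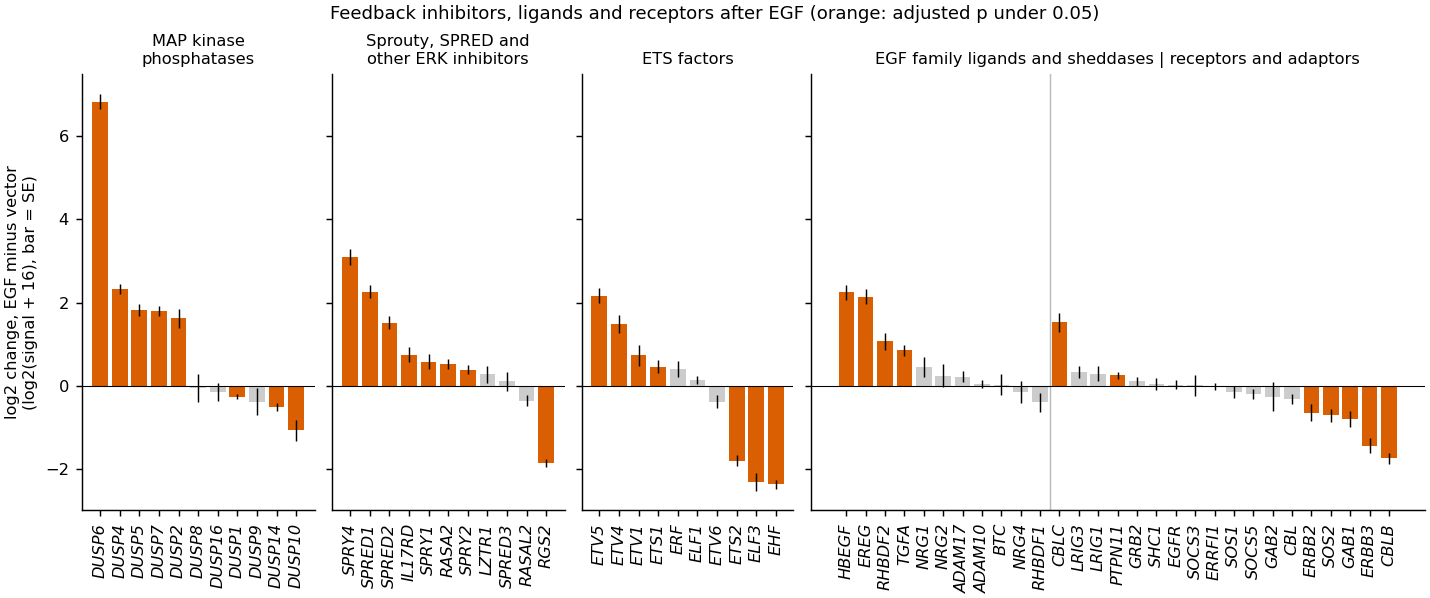
Change in log2(signal + 16), EGF minus vector, for MAP kinase phosphatases, Sprouty and SPRED genes, ETS factors, and EGF family ligands and receptors, with the SE of the limma fit over 9 arrays as error bar. Orange bars had an adjusted p under 0.05 and grey bars did not. DUSP6 is the tallest bar at 6.83, and the ETS factors EHF, ELF3 and ETS2 and the ubiquitin ligase CBLB point down.

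Ligands of the EGF family rose while EGFR itself was not called. HBEGF, a heparin-binding ligand shed from the membrane, read 26.0, 47.9 and 28.5 without EGF and 212, 234 and 206 with it (2.24 ± 0.18, adjusted p = 8.86e-09). EREG, epiregulin, read 26.5, 19.8 and 24.9 without EGF and 169.6, 161 and 146 with it (2.14 ± 0.18, adjusted p = 2.34e-08). TGFA, the ligand TGF-alpha, rose from 160.0 ± 10.3 to 301 ± 25.6 (0.85), and RHBDF2, which escorts the sheddase ADAM17, from 57.9 ± 18.7 to 137 ± 31.3 (1.07). All 4 had EGF arrays above every vector array, and they were the 4 of 11 ligand and shedding genes called, with none falling. NRG1 (13.0 and 23.6), BTC (15.7 and 15.8) and the sheddases ADAM10 (0.05) and ADAM17 (0.22) were not called. Each of these 2 sheddases had 1 other probe set called higher, by 0.53 for ADAM10 (adjusted p = 0.0047) and by 0.45 (0.023) for ADAM17, whose main probe set was also called with equal array medians. The EGF gene did not pass the filter, and AREG and EPGN had no probe set assigned to them alone.

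Of 18 receptors, adaptors and receptor inhibitors 2 rose and 5 fell. EGFR read 1913, 1932 and 1659 without and 2039, 1796 and 1785 with EGF, values that overlapped (0.03, adjusted p = 0.86), while 2 of its 6 other probe sets were called lower. ERBB3, the partner receptor that couples to PI3K, read 133, 99 and 109.7 without EGF and 22.2, 32.4 and 42.4 with it (-1.44 ± 0.19, adjusted p = 6.81e-06). CBLB, a ubiquitin ligase that promotes receptor degradation, read 389, 310.3 and 335 without EGF and 93.0, 90.4 and 92.1 with it (-1.74 ± 0.13). Its relative CBLC went the other way, from 5.21, 22.8 and 20.9 to 79.6, 68.4 and 73.5 (1.52 ± 0.23). The other probe set of CBLC lay lower with EGF, from 20.0 to 3.78, and was not called (-0.80, adjusted p = 0.12). The adaptor GAB1 fell from 78.1 ± 7.56 to 37.7 ± 2.90 (-0.81) and the RAS exchange factor SOS2 from 347 ± 18.2 to 206 ± 14.2 (-0.71). ERBB2 fell from 174 ± 48.0 to 104 ± 23.3 (-0.65), with overlapping arrays and a call lost under 5 alternatives, including without EGF replicate 2, vector replicate 1 or vector replicate 2 (highest adjusted p 0.11). ERRFI1, known as MIG6 and a direct inhibitor of EGFR, stood at 1899, 1792 and 1843 without EGF and 1914, 1756 and 1780.1 with it (-0.02). PTPN11, the phosphatase SHP2, was the other member called higher (0.25), except without EGF replicate 1 or 3, without vector replicate 3, after quantile normalization or without a variance trend (highest 0.13), which leaves 1 rise.

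Factors that shorten the life of messenger RNA also split. Of 8 tested 2 rose and 4 fell. ZFP36L2, which binds AU-rich elements, read 1147, 1272 and 1053 without EGF and 2469, 2083 and 2155 with it (0.94 ± 0.09), and ZFP36L1 rose from 1016 ± 59.7 to 1369 ± 70.4 (0.42). ZFP36 itself stood at 368 and 365. The antiproliferative factors that recruit the deadenylase complex fell, TOB1 from 1899 ± 98.0 to 919 ± 55.1 (-1.04) and BTG3 from 1127 ± 98.1 to 709.9 ± 107 (-0.66). TOB2 was at -0.40, a call lost under 7 alternatives, among them without any vector array or EGF replicate 2 or 3 (highest adjusted p 0.14).

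BTG1, the fourth to fall, also stands in the list of FOXO and growth factor withdrawal genes, the list with the largest share of falls among those examined. Of 23 tested 21 fell and none rose by the highest-signal probe set, with a median change of -1.39, while DEPP1 had a second probe set that rose. The falls numbered 17 with equal array medians, 18 after quantile normalization and 17 to 21 with single arrays left out. BTG1 read 4332, 4831 and 4985 without EGF and 1085, 988 and 1025 with it (-2.17 ± 0.09, adjusted p = 1.43e-12). Its promoter (RefSeq, GRCh38.p14, chr12:92145847-92146096, minus strand) holds a forkhead site. It is shown because BTG1 had the largest fall among the withdrawal genes found to hold one. FBXO32, given below, fell more, but no promoter was found for it by symbol, so it was not searched. The site, written TGTTTAC here as the reverse complement of GTAAACA, is in capitals 209 to 203 bases before the start.
BTG1: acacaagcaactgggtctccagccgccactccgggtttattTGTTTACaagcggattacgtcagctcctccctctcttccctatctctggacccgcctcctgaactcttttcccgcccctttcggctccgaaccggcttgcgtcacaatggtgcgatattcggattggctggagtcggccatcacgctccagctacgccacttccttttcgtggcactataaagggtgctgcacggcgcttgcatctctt

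The withdrawal genes, taken with the FOXO and insulin genes and the MYC network below, had 41 promoters in the table, and 4 of them (9.76%) held a forkhead site, against 2.05% of promoters of tested genes. The AP-1 site was in as many of them (4, 9.76%, against 4.14%), and the E-box in 12.2% (8.68%). The 4 with a forkhead site were BTG1, SELENOP and TXNIP, which fell, and DEPP1, which was not called. Among the 24 whose genes fell the share was 12.5% for the forkhead site and 12.5% for the E-box. CITED2, another withdrawal gene, held an E-box instead, 153 to 148 bases before its start. In the 352 promoters of genes that fell at least 2-fold, 2.56% held the forkhead site. The withdrawal list gathers FOXO genes and was chosen with earlier results of these data known. Its forkhead share is therefore a description and was not tested.

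FBXO32, the ubiquitin ligase atrogin-1 that wasting muscle induces, had the largest fall of any gene. It read 969.7, 1023 and 1109 in vector and 39.8, 37.2 and 41.1 in EGF arrays (-4.24 ± 0.17, adjusted p = 6.26e-13), and all 6 of its other probe sets had the same sign. PDK4, a kinase that inhibits pyruvate dehydrogenase, read 407, 436 and 426 without EGF and 38.8, 36.7 and 40.9 with it (-3.0 ± 0.19). TSC22D3, the glucocorticoid-induced leucine zipper, read 4958, 4825 and 5189 without EGF and 714, 742 and 698 with it (-2.77 ± 0.08). The repressor BCL6 fell from 1224 ± 203 to 285 ± 9.62 (-2.03), YPEL3, linked to senescence, from 347 ± 35.0 to 72.0 ± 17.6 (-2.06) and the coactivator CITED2 from 851 ± 89.8 to 239.8 ± 13.7 (-1.76). Cyclin G2, CCNG2, a marker of cell cycle exit, read 1058, 942 and 1015 without EGF and 321, 257 and 373 with it (-1.63 ± 0.13). TXNIP, which holds back glucose uptake, read 3772, 3996 and 3958 without EGF and 1408, 1339.8 and 1346 with it (-1.51 ± 0.07). SELENOP, a secreted selenium carrier, read 4662, 4867 and 5034 without EGF and 1961, 1768 and 1792 with it (-1.39 ± 0.08). In all of these genes every EGF array was below every vector array by the probe set given.

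The death ligand TNFSF10, known as TRAIL, fell (-1.71), as did SESN1, a stress inhibitor of mTORC1 (-1.51), and GABARAPL1, an autophagy protein (-1.37). CDKN1B, the kinase inhibitor p27, went from 619 ± 31.8 to 379 ± 14.3 (-0.68) and RBL2, the pocket protein p130 of resting cells, from 523 ± 16.6 to 331 ± 16.6 (-0.63). PINK1 (-0.67) fell as well. Weaker members were ARRDC2 (-0.66; adjusted p = 0.054 without vector replicate 3) and IRS2 (-0.40; 0.056 with equal array medians). SESN3 (-0.81), PIK3IP1 (-0.76) and ARRDC4 (-0.57) lost their calls under 9, 6 and 8 alternatives, which included leaving out vector replicate 3 or EGF replicate 3 for each (highest adjusted p 0.17, 0.1 and 0.13). PIK3IP1 had 2 other probe sets, both uncalled and of the other sign. SESN3 and ARRDC4 also lost theirs without vector replicate 1 or EGF replicate 2, and PIK3IP1 and ARRDC4 without EGF replicate 1. ARRDC3 (343 and 349) and DEPP1 (25.8 and 28.6) were the 2 not called. The other probe set of DEPP1, a FOXO-induced gene, was called higher, from 9.18 to 75.3 (1.86, adjusted p = 1.72e-05), against the direction of the list.

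**Figure D3:**
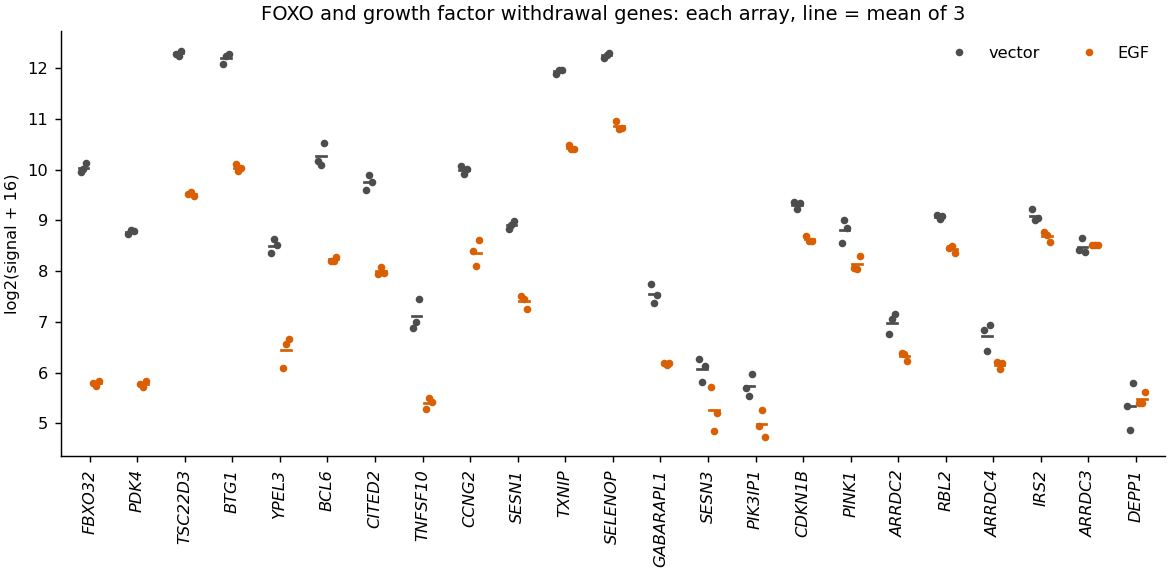
Signals of the 23 FOXO and growth factor withdrawal genes tested, as log2(signal + 16), on the 3 vector (grey) and 3 EGF (orange) arrays, with a line at each mean of 3. Genes are ordered by change from FBXO32, the largest fall at -4.24, to ARRDC3 and DEPP1, where the groups overlap.

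The FOXO factors themselves and the insulin and PI3K genes around them moved in both directions. FOXO3 read 2369, 2386 and 2398 without EGF and 1027, 1064 and 1115 with it (-1.15 ± 0.08, adjusted p = 7.78e-10). FOXO1 read 722, 808 and 780.4 without EGF and 316, 241 and 327 with it (-1.35 ± 0.12). FOXO4 stood at 19.5 and 37.6 and was not called. IRS1, the adaptor of the insulin receptor, read 39.9, 45.1 and 31.1 without EGF and 146, 129 and 153 with it (1.54 ± 0.18). TRIB3, a pseudokinase that binds AKT, read 163, 177 and 179 without EGF and 718, 785 and 764 with it (2.03 ± 0.10). Both rose with a clear gap. INPP4B, a lipid phosphatase, rose from 92.3 ± 7.65 to 152 ± 7.70 (0.63), and GRB10, which restrains insulin signalling, fell from 382 ± 21.5 to 282 ± 14.6 (-0.42). In all 5 of 15 rose and 7 fell, of which 3 falls were called with equal array medians. INSR (-0.54) and IGF1R (-0.38) were among the falls lost there. INSR was also lost without EGF replicate 2 or vector replicate 3, and IGF1R without EGF replicate 3 or vector replicate 1 (highest adjusted p 0.13 and 0.12).

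Genes of cell cycle entry rose. Of 24 G1 and S phase genes 18 rose and none fell, with a median change of 0.81. Of 20 mitosis genes 4 rose and 3 fell, near the 17.2% and 18.9% of all genes. Their median change was 0.11 and ran from -0.04 to 0.23 over the alternatives. CCND1, the cyclin D1 that starts G1 progression, read 50.5, 74.7 and 37.6 without EGF and 622, 502 and 482 with it (3.0 ± 0.16, adjusted p = 4.87e-11). CCNE2, a cyclin of the entry into S phase, read 12.9, 19.3 and 16.4 without EGF and 112, 106 and 108 with it (1.96 ± 0.16). The phosphatase CDC25A went from 16.7 ± 14.4 to 96.5 ± 12.7 (1.87). The origin licensing factor CDC6 read 12.0, 19.5 and 18.5 without EGF and 118, 87.0 and 80.1 with it (1.76 ± 0.17). MCM6, a helicase subunit, rose from 187 ± 14.3 to 628 ± 10.9 (1.67) and MCM10 from 9.37 ± 8.22 to 57.7 ± 14.4 (1.58). The groups did not overlap in these 6 genes.

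In mitosis the kinase TTK rose from 51.7 ± 4.70 to 96.4 ± 14.5 (0.73) and cyclin B1, CCNB1, from 538 ± 51.6 to 779 ± 134 (0.51). CDK1 (0.46) and CCNA2 (0.47) had overlapping groups, and their calls were lost without EGF replicate 2, vector replicate 2 or vector replicate 3, with no filter and with no variance trend, and for CCNA2 without EGF replicate 3 (highest adjusted p 0.13 and 0.20). The mitosis rises thus numbered 2 without EGF replicate 2 or vector replicate 3, and the 3 falls numbered 0 with equal array medians and without EGF replicate 1. In the MYC network MYC, MAX (0.29) and MLX (0.49) rose and the other 5 genes tested were not called. MAX was lost without vector replicate 3 and without a variance trend (highest adjusted p 0.07).

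Inhibitors of the cell cycle and p53 targets went down, 8 of 13 with 2 rising and a median of -0.80. CDKN1A, the kinase inhibitor p21, read 799, 930.1 and 828 without EGF and 262, 193 and 178 with it (-1.95 ± 0.12, adjusted p = 2.54e-10). CDKN1C, the inhibitor p57, read 1479, 1864 and 1718 without EGF and 412, 444 and 479 with it (-1.88 ± 0.13). GADD45B, a stress sensor, fell from 436 ± 15.8 to 109 ± 8.20 (-1.85), while its relative GADD45A rose from 173 ± 18.5 to 348 ± 3.94 (0.95). TP53INP1, a p53 target, fell from 199.6 ± 13.0 to 47.5 ± 12.9 (-1.78). In GADD45A and GADD45B alike the groups did not overlap.

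Genes that build ribosomes had the largest share of rises among the lists, 30 of 33 with none falling and a median change of 1.03. LYAR, a nucleolar factor of pre-ribosomal RNA processing, read 142, 144 and 159 without EGF and 1226, 1081 and 1178 with it (2.84 ± 0.10, adjusted p = 8.37e-14). RRS1, needed for large subunit assembly, read 182, 126 and 151 without EGF and 801, 730.5 and 739 with it (2.21 ± 0.11). PNO1, a small subunit assembly factor, rose from 243 ± 30.0 to 911 ± 139 (1.83), RRP12, an export factor, from 37.0 ± 8.80 to 190.3 ± 10.2 (1.97; 2 of its 3 other probe sets uncalled with the other sign) and RRP9 from 39.2 ± 18.9 to 167 ± 13.5 (1.79). The helicase DDX21, which acts in the nucleolus, read 2023, 1695 and 1722 without EGF and 5191, 5283 and 5426 with it (1.54 ± 0.07). The groups did not overlap in any of these 6, and the count of rises stayed between 29 and 31 under every alternative run.

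The structural proteins of the ribosome did not follow. Of 54 cytosolic ribosomal protein genes 43 fell and none rose, but the falls were small, with a median of -0.23, and 5 remained called with equal array medians and 4 after quantile normalization. The falls numbered 24 without EGF replicate 3, 25 without vector replicate 2 and 2 without a variance trend. Of 75 mitochondrial ribosomal protein genes 33 rose and 3 fell (5 without vector replicate 1), with a median of 0.21. MRPL17 rose from 279 ± 34.5 to 641 ± 35.7 (1.16), MRPL36 from 1287 ± 22.2 to 2781 ± 141 (1.10) and MRPS23 from 489.8 ± 9.42 to 1048 ± 28.9 (1.07). Of 74 oxidative phosphorylation subunits 35 fell and 2 rose, with a median of -0.21, and the falls numbered 12 with equal array medians and 22 without vector replicate 3. Of 17 aminoacyl-tRNA synthetase genes, which charge transfer RNAs, 13 rose and none fell (median 0.40). FARSB read 335, 349 and 361 without EGF and 769, 782 and 806 with it (1.14 ± 0.08). GARS1 read 754, 779 and 759.6 without EGF and 1591, 1542 and 1597 with it (1.03 ± 0.07).

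Of 18 polyamine and nucleotide synthesis genes 15 rose and 1 fell, with a median of 0.81. CTPS1, which makes cytidine triphosphate, read 122, 104 and 91.7 without EGF and 446, 521 and 482 with it (2.04 ± 0.11, adjusted p = 4.87e-11). ODC1, the rate-limiting enzyme of polyamine synthesis, read 1231, 1241 and 1211 without EGF and 2908, 2921 and 2977 with it (1.25 ± 0.06), and AMD1, of the same route, rose from 432 ± 44.1 to 1011 ± 28.1 (1.20). SAT1, which breaks polyamines down, rose too, from 1202 ± 62.7 to 2698 ± 123 (1.16). The pyrimidine enzymes UMPS (1.24) and CAD (1.20) rose by similar amounts, though the other, dim probe set of CAD was uncalled at -0.53.

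Of 24 glycolysis and hypoxia genes 15 rose and 2 fell (median 0.45), falls that numbered 0 without vector replicate 2 and 1 without EGF replicate 2, EGF replicate 3 or vector replicate 3. HK2, the inducible hexokinase, read 128, 129.7 and 99.6 without EGF and 522, 508 and 529 with it (2.0 ± 0.15). VEGFA, the vascular growth factor, read 299.9, 299 and 317 without EGF and 1131, 1153 and 1118 with it (1.84 ± 0.09). PDK1, a relative of PDK4, went opposite to it, from 146, 128 and 117 to 493, 468 and 480.0 (1.77 ± 0.11). The calcium-regulating hormones STC1 (1.51) and STC2 (1.37) and the oxygen sensor EGLN3 (1.26) rose. MIR210HG, the host gene of a hypoxia microRNA, rose from 42.6 ± 15.4 to 110.0 ± 27.4 (1.12).

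Of 16 sterol and fatty acid synthesis genes 11 rose and 2 fell (median 0.53; 1 fall without EGF replicate 2). HMGCS1, an early enzyme of cholesterol synthesis, read 269, 214 and 172 without EGF and 1200.3, 1025 and 1219.8 with it (2.33 ± 0.13, adjusted p = 4.93e-11). MVD (1.0), the sterol sensor INSIG1 (0.97), the monooxygenase SQLE (0.85) and the desaturase SCD (0.82) rose less. IDI1 was at 0.90, with 2 of its 3 other probe sets called lower. Amino acid transport and ATF4 genes were mixed, with 6 of 20 rising and 4 falling. Here TRIB3 rose, while DDIT3, the stress factor CHOP, read 88.8, 108 and 122 without EGF and 9.52, 43.8 and 32.1 with it (-1.54 ± 0.27, adjusted p = 1.70e-04). SLC7A5, an importer of large neutral amino acids, fell from 5702 ± 503 to 3892 ± 217 (-0.55).

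**Figure D4:**
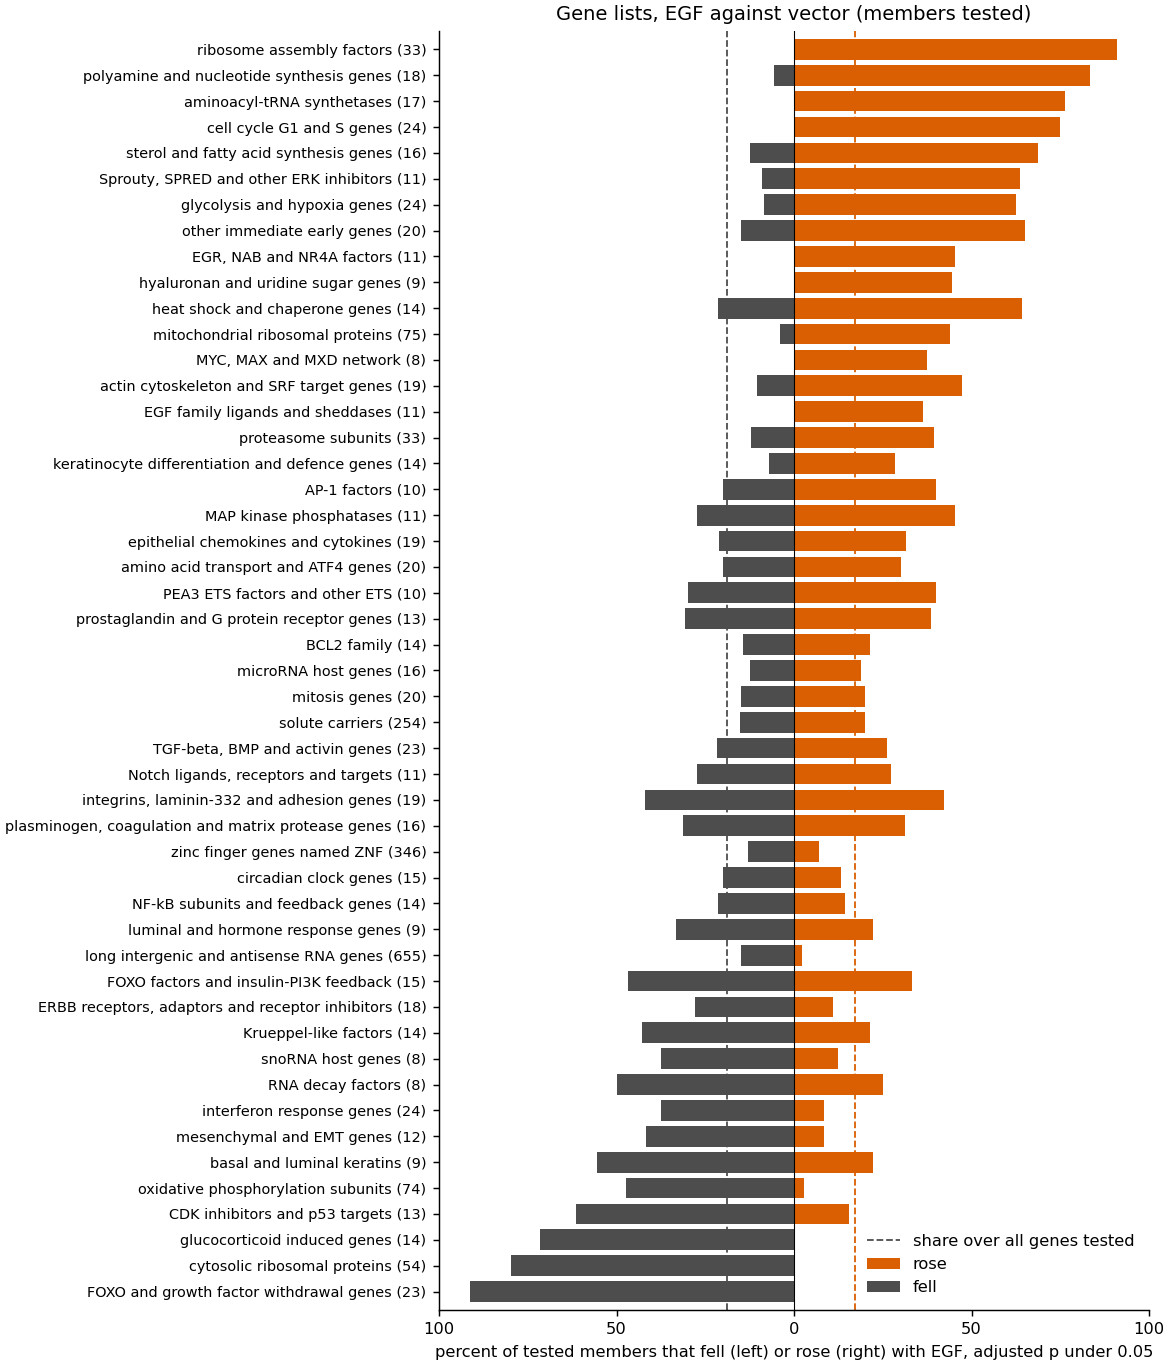
Percent of tested members that rose (orange, to the right) or fell (grey, to the left) in each gene list, with the number tested in brackets. Dashed lines mark the shares over all genes tested, 17.2% and 18.9%. Ribosome assembly factors lead at the top with 30 of 33 rising, and the withdrawal list, with 21 of 23 falling, stands last.

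Several of the largest rises were in secreted or surface proteins. GJB2, connexin 26 of gap junctions, read 23.9, 28.2 and 24.6 in vector and 942, 879 and 913 in EGF arrays (4.48 ± 0.14, adjusted p = 2.17e-14). ANGPTL4, a secreted inhibitor of lipoprotein lipase, read 28.9, 12.1 and 39.0 without EGF and 1649, 1579 and 1535 with it (5.28 ± 0.16). F3, tissue factor, the starter of blood coagulation, read 78.8, 67.9 and 78.3 without EGF and 1054, 851 and 1014 with it (3.44 ± 0.10). Each of these 3 genes was low on all vector arrays and high on all EGF arrays. FGFBP1, a carrier of fibroblast growth factors, read 522, 638 and 530.4 without EGF and 4632, 4234 and 4236 with it (2.92 ± 0.08). TNFRSF12A, the receptor FN14, read 135, 139 and 136 without EGF and 938, 1143 and 1091 with it (2.81 ± 0.11). SLC20A1, a phosphate transporter, read 684, 769 and 708 without EGF and 6186, 5760.1 and 5974 with it (3.02 ± 0.07, adjusted p = 9.27e-17). All 6 are among the 25 largest rises, which were taken only from genes whose groups did not overlap.

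The chemokine CCL20, which draws CCR6-bearing immune cells, read 68.2, 35.9 and 67.6 without EGF and 790.1, 833 and 809.7 with it (3.53 ± 0.15). CXCL8, interleukin 8, read 14.1, 18.7 and 27.9 without EGF and 168, 187 and 184 with it (2.45 ± 0.17). IL1A rose from 119.9 ± 11.1 to 351.06 ± 24.4 (1.43), though its other, dimmer probe set was not called and had the other sign (-0.45). TNFSF11, the RANK ligand, moved against them, from 177, 163 and 200.5 to 5.45, 1.15 and 8.27 (-3.24 ± 0.22), and CSF1 fell from 125 ± 33.4 to 45.4 ± 11.9 (-1.19). Of 19 epithelial chemokines and cytokines 6 rose and 4 fell. Of 14 NF-kB subunits and feedback genes 2 rose and 3 fell, near the 17.2% and 18.9% of all genes. The inhibitor NFKBIA fell from 2547 ± 134 to 1356 ± 155 (-0.91) and the subunit REL from 215 ± 2.06 to 101 ± 24.9 (-1.0).

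Of 9 hyaluronan genes 4 rose and none fell. HAS3, a hyaluronan synthase, read 29.2, 16.2 and 27.0 without EGF and 244, 185 and 195 with it (2.48 ± 0.19), though its other probe set had the other sign. CD44, the hyaluronan receptor, rose from 1899.8 ± 93.2 to 2762 ± 180.4 (0.54) by its highest-signal probe set, and of its 11 other probe sets 1 was called higher and 2 had the other sign. Among plasminogen, coagulation and protease genes SERPINE2 (1.69), THBD (1.11) and the urokinase receptor PLAUR (0.79) rose beside F3, and MMP14 fell (-0.92). The list split evenly, with 5 of 16 in each direction.

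Adhesion genes divided too, with 8 of 19 rising and 8 falling, and 5 falling with equal array medians. The integrin subunit ITGA2, a collagen receptor, read 148, 107 and 85.2 without EGF and 516, 453 and 460.5 with it (1.96 ± 0.15). The laminin-binding ITGA6 rose from 688 ± 102 to 1680.0 ± 196 (1.27), ITGA3 from 194 ± 45.6 to 456 ± 26.7 (1.19) and the laminin-332 chain LAMB3 from 552 ± 34.8 to 1282 ± 165 (1.19). The ephrin receptor EPHA2 read 89.1, 88.3 and 109 without EGF and 350.98, 281 and 343 with it (1.61 ± 0.12). Its ligand EFNA1 fell from 747, 888 and 787 to 251, 280.5 and 284 (-1.52 ± 0.10). The groups overlapped for neither gene. Of 19 actin cytoskeleton genes and SRF targets, 9 rose and 2 fell (median 0.34), with the crosslinker ACTN1 at 1.06, the tropomyosin TPM4 at 1.02 and the LIM protein FHL2 at 0.95.

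TGF-beta family genes rose in 6 of 23 cases (3 without EGF replicate 1 or vector replicate 3) and fell in 5. INHBA, the activin A subunit, read 1.55, 1.75 and 1.88 without EGF and 190.0, 156 and 131 with it (3.29 ± 0.19, adjusted p = 1.22e-10). ID2, an inhibitor of basic helix-loop-helix factors, read 178, 189 and 236 without EGF and 30.8, 29.7 and 30.9 with it (-2.21 ± 0.17). Its relative ID3, also a target of BMP signals, read 1003, 1025 and 1229 without EGF and 314, 290.4 and 267 with it (-1.84 ± 0.12). The coreceptor TGFBR3 fell from 623 ± 26.0 to 155 ± 13.1 (-1.90) and the ligand BMP2 from 157 ± 19.2 to 73.4 ± 19.6 (-0.97), while the decoy receptor BAMBI rose from 33.2 ± 8.47 to 73.3 ± 8.74 (0.87). CXCR4, the receptor of CXCL12, read 282, 300.4 and 333 without EGF and 20.5, 13.6 and 25.9 with it (-3.17 ± 0.19). The adenosine receptor ADORA2B rose from 312 ± 26.4 to 726 ± 11.1 (1.18) and the thrombin receptor F2R fell from 341 ± 46.7 to 136 ± 16.3 (-1.23). Among Notch genes the targets HES1 (1.16) and HES4 (1.29) rose, and NOTCH1 (-1.01) and its ligand DLL1 (-1.12) fell.

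Glucocorticoid-induced genes fell in 10 of 14 cases with none rising, at a median of -0.66. Hydrocortisone is in the growth medium named in the labels, which give no content for the assay medium beyond serum and EGF. PDK4, TSC22D3, KLF9 and SGK1 of this list are given above. ZBTB16, a transcriptional repressor, read 566, 763 and 744 without EGF and 273, 259 and 260.1 with it (-1.33 ± 0.12, adjusted p = 5.46e-08). GLUL, glutamine synthetase, fell from 10487 ± 746 to 5623 ± 331 (-0.90). With equal array medians 9 fell and 2 rose, and 2 and 1 rose without EGF replicate 3 and vector replicate 2. Of 15 clock genes 2 rose and 3 fell, near the 17.2% and 18.9% of all genes. CRY1, a repressor of the clock, rose from 104 ± 17.9 to 264 ± 32.8 (1.23), and NFIL3 (-1.42), NR1D2 (-1.07) and DBP (-1.01) fell.

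In the BCL2 family, 3 of 14 genes rose and 2 fell, near the 17.2% and 18.9% of all genes. The proapoptotic BCL2L11, known as BIM, read 503, 538 and 447 without EGF and 118, 153 and 151 with it (-1.71 ± 0.13, adjusted p = 3.62e-09). BMF, of the same BH3-only class, read 55.6, 73.5 and 52.5 without EGF and 23.9, 1.71 and 3.49 with it (-1.66 ± 0.33). MCL1, which opposes them, rose from 3447, 2768 and 3305 to 4801, 4653 and 4777 (0.58 ± 0.08). BID (0.82) and BAK1 (0.83), which promote death, rose as well. Of 24 interferon response genes 9 fell and 2 rose (median -0.35), with falls from 6 to 10 and rises from 0 to 3 when single arrays were left out. The rises numbered 0 without EGF replicate 1 or vector replicate 2 or 3, and 1 without EGF replicate 2 or vector replicate 1. IFIT1 read 59.8, 37.6 and 48.3 without EGF and 2.59, 3.55 and 3.21 with it (-1.74 ± 0.30). IFI44L read 395, 335 and 323 without EGF and 125, 107 and 115 with it (-1.47 ± 0.14), and the factor IRF1 fell from 187 ± 17.0 to 100.0 ± 15.2 (-0.81).

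Epithelial identity genes changed in both directions. Of 9 keratins 5 fell and 2 rose (1 rise without EGF replicate 2 or 3, vector replicate 2 or 3, or labelled ERBB2 replicate 2 or 3). The basal KRT15 fell from 12869 ± 221 to 7747 ± 397 (-0.73), and KRT16 (-0.96) and KRT14 (-0.57) fell too. The simple epithelial KRT18 rose from 3559 ± 221 to 5099 ± 40.9 (0.52). S100A9, a calcium-binding defence protein, rose from 387 ± 74.3 to 826 ± 43.0 (1.08). GREB1, an estrogen-responsive gene, read 462, 456 and 417 without EGF and 58.6, 47.2 and 41.9 with it (-2.83 ± 0.19), and XBP1, a factor of the secretory pathway, rose from 197 ± 19.1 to 412 ± 19.2 (1.01). Of 12 mesenchymal genes 5 fell and 1 rose. Fibronectin, FN1, fell from 155 ± 18.3 to 72.5 ± 9.05 (-0.95), S100A4 from 2743 ± 196 to 1436 ± 33.6 (-0.92) and TWIST1 from 563 ± 45.5 to 389 ± 15.4 (-0.51), while SNAI2, known as SLUG, rose from 1085 ± 86.6 to 1424 ± 72.7 (0.39).

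Of 14 heat shock and chaperone genes 9 rose and 3 fell. HSPA5, the chaperone BiP of the endoplasmic reticulum, read 2679, 2391 and 2350.4 without EGF and 5439, 5314 and 5363 with it (1.12 ± 0.07), and HSPA4 rose from 972 ± 70.1 to 1958 ± 62.5 (1.0). The small heat shock gene HSPB1 fell from 10226 ± 530.1 to 5625 ± 201 (-0.86), with the cochaperones DNAJB4 (-1.37) and DNAJB1 (-0.98).

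By annotated class, of 12472 protein-coding genes 2318 rose and 2424 fell (median change -0.08), and of 954 long noncoding RNA genes 25 rose and 145 fell (median -0.25). Beside 17.2% and 18.9% of all genes, long noncoding genes were called less often in both directions, most clearly for rises. Among 655 genes with long intergenic or antisense symbols 15 rose and 97 fell, with 65 falls at equal array medians and 64 without vector replicate 2. Both shares were again below those of all genes. LINC03125 read 76.9, 81.3 and 115 without EGF and 3.87, 4.45 and 4.47 with it (-2.38 ± 0.25). LINC00294 read 352, 371 and 303 without EGF and 91.2, 80.0 and 84.3 with it (-1.82 ± 0.14), and SH3PXD2A-AS1 rose from 29.1 ± 7.41 to 107 ± 13.8 (1.46). Whether an antisense probe set reads its own strand was not examined. Of 346 zinc finger genes named ZNF 24 rose and 45 fell, both smaller shares than over all genes. The falls numbered 23 at equal array medians and 29 without EGF replicate 2 or vector replicate 2 or 3. Genes dim in vector were called less often in both directions, as given further below. The part of signal level in the smaller shares of the noncoding and ZNF genes was not tested. ZNF367, one of the 25 largest rises, read 11, 12.1 and 1.51 without EGF and 132, 109 and 122 with it (2.53 ± 0.20). Of 254 solute carriers 51 rose and 39 fell (25 with equal array medians), near the shares over all genes. The rises were led by SLC20A1 above, and the falls by SLC16A14, a monocarboxylate transporter family member (404 ± 16.4 to 89.3 ± 5.48, a change of -2.0).

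The 25 largest rises and 25 largest falls that met the rule for named genes were chosen on their changes, so their sizes are a description. The rises not yet given were AMIGO2, an adhesion protein (3.76), the purine enzyme XDH (3.34), the chromatin protein HMGA2 (3.02), the S phase ubiquitin ligase adaptor DTL (2.70), the lipase LIPG (2.61) and the membrane receptor PAQR5 (2.59). Of 26 other probe sets of the 25 risen genes 25 had the same sign, and 19 were called higher. For HMGA2 1 of 5 others was called, and for PHLDA2 the 1 other was not. The falls not yet given included the protocadherin PCDH9 (-3.21), the RAC exchange factor VAV3 (-2.59), RAB30, a small GTPase (-2.56), FIBIN (-2.50), the nuclear envelope protein SYNE2 (-2.18), KITLG, the ligand of the receptor KIT (-2.18), and the proteasome regulator NFE2L1 (-2.14). All 39 other probe sets of the 25 fallen genes had the same sign, and 38 were called lower. By vector level, 168 genes rose and 87 fell among the 3432 dimmest (mean vector signal 0.683 to 31.2), and 919 rose and 1171 fell among the 3432 brightest. These levels were cut on the vector mean, which is itself part of the change. The filter took the mean over all 9 arrays, so a gene dim in vector passed more easily where other arrays were high. More rises among dim genes and more falls among bright ones therefore follow in part from the selection.

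EGF arrays were also tested directly against the arrays labelled ERBB2, to see which of these changes differ from cells carrying the ErbB2 virus without EGF. That group's label was not borne out by the highest-signal ERBB2 probe set (174 ± 48.0 in vector, 98.8 ± 23.1 in arrays labelled ERBB2, 104 ± 23.3 with EGF). Whether this probe set reads RNA made from the virus was not examined. Virus and EGF exposure both differ, so stimulus and duration cannot be told apart. RNA controls differed as well. The 5′ over 3′ ratio of ACTB was 0.701 to 0.796 in arrays labelled ERBB2 and 0.378 to 0.505 in EGF arrays. That of GAPDH overlapped, at 0.838 to 0.901 and 0.762 to 0.85. Signals at the 3′ end of 18S were 11926 to 13513 and 2103 to 3369. How far such differences enter the calls below was not tested. Both groups' changes from vector share the vector arrays and are only set side by side. Of all genes 2203 were higher with EGF (16%) and 1754 lower (12.8%). Of the 455 genes that EGF raised at least 2-fold, 154 (33.8%) were above and 80 (17.6%) below the arrays labelled ERBB2. Of the 430 that it lowered 126 (29.3%) were above and 79 (18.4%) below. The EGF arrays that chose these genes also enter this test. That selection favours the share above for raised genes and the share below for lowered ones. These shares are therefore not comparable with those of all genes.

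EREG read 22.4, 25.1 and 22.9 in the arrays labelled ERBB2 against 169.6, 161 and 146 with EGF, a difference of 2.14 ± 0.18 (SE; limma adjusted p = 3.27e-08), and its change from vector there was -0.01 beside 2.14. HBEGF read 50.3, 49.0 and 57.6 in those arrays and was 1.77 ± 0.18 higher with EGF. DUSP6 read 1228, 790.2 and 869.9, and EGF was 1.54 ± 0.18 above it. EGR1 read 891, 941 and 1195, and EGF was higher by 1.11 ± 0.11. PHLDA1 read 147, 161 and 161, and EGF was higher by 2.33 ± 0.13. In these 5 genes all EGF arrays were above all arrays labelled ERBB2. SPRY4 differed by 0.57 ± 0.19 (adjusted p = 0.037). For FOSL1 (0.23 ± 0.13, adjusted p = 0.23) and CCND1 (0.27 ± 0.16, 0.27) no difference was called.

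The cell cycle separated the groups the other way. All 20 mitosis genes and 19 of 24 G1 and S phase genes were lower with EGF than in the arrays labelled ERBB2, with median differences of -1.60 and -0.98. CDK1 read 1478, 2030.5 and 1948 there and 400.1, 533 and 451 with EGF (-1.94 ± 0.15), and CDC6 219.9, 222 and 199 and 118, 87.0 and 80.1 (-1.06 ± 0.17). Of the 23 withdrawal genes 12 were higher with EGF and none lower, with SELENOP at 1841 and 74.6 (4.36 ± 0.08), although FBXO32 was not called (0.46, adjusted p = 0.056). Glycolysis and hypoxia genes were higher with EGF in 15 of 24 cases and lower in 1. The largest differences by the rule for named genes, again a description, included the receptor FGFR3 (3.8), NDRG1 (3.69), KRT14 (3.43) and GJB2 (3.13) above and the actin bundler LCP1 (-4.16), the cytochrome CYP1B1 (-3.48), asparagine synthetase ASNS (-2.82) and TXNRD1 (-2.15) below.

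**Figure D5:**
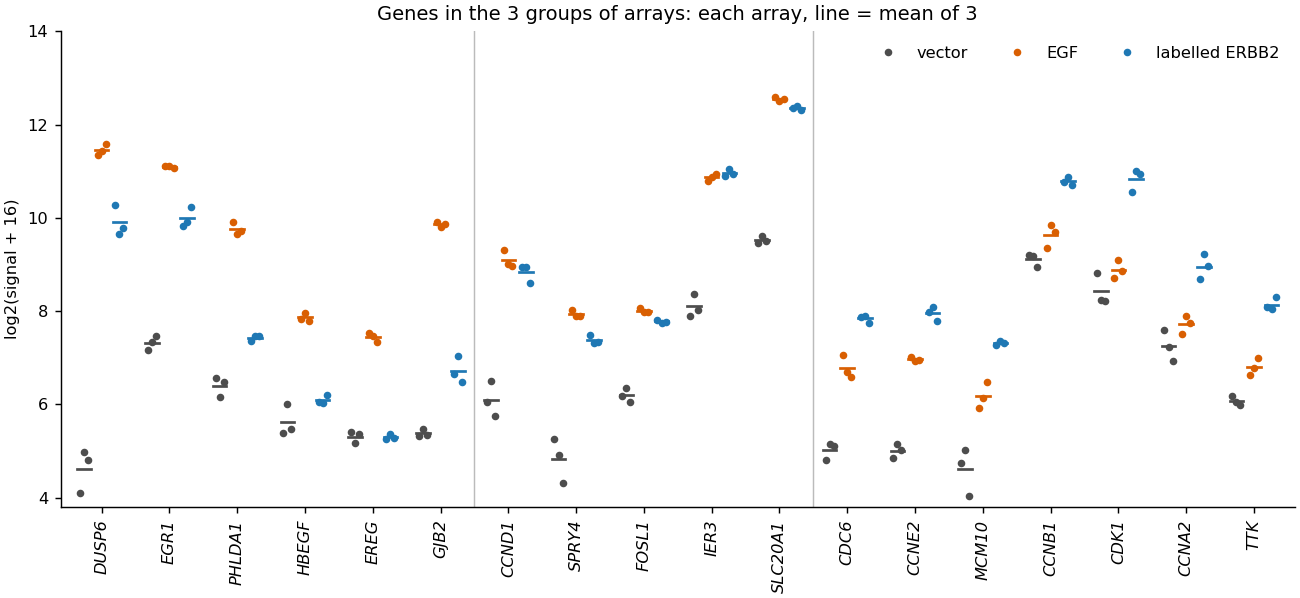
Signals as log2(signal + 16) on the 3 vector (grey), 3 EGF (orange) and 3 labelled ERBB2 (blue) arrays, with a line at each mean of 3. The left panel shows genes highest with EGF, such as EREG, the middle one genes raised in both groups, such as FOSL1 and CCND1, and the right one cell cycle genes, which lie highest in the arrays labelled ERBB2.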

How the data were processed

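The authors deposited a linear signal intensity for each of 54675 probe sets on 9 arrays, which the submitters' processing notes attribute to MAS5. The MAS5 version and scaling were not given in the sources used here. Total RNA was labelled in a single amplification cycle, per the labels' protocols. Signals were taken as deposited without the array's 62 own controls, and log2(signal + 16) was fitted with limma 3.58.1 (R 4.3.3; lmFit, then eBayes with a variance trend) with a mean for each of 3 groups and all 9 arrays in the model, which leaves 6 residual degrees of freedom. The test covered probe sets whose mean log2 value passed the 40th percentile, and p-values were adjusted by Benjamini-Hochberg over all 32768. The pipeline was tested on simulated data. The number of arrays limits the precision: with 3 against 3, an exact permutation test cannot go below p = 0.1. Detection calls were not used.

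The comparison and gene lists were chosen with earlier results of these data known. Named genes were the 25 largest non-overlapping called rises and falls above median signal, every measured member of the transcription, feedback, ligand, receptor, RNA decay and withdrawal lists, up to 6 called members of each other list with the largest changes, and the 10 largest differences each way between EGF and arrays labelled ERBB2. Promoters shown were chosen from those with the largest changes that hold a searched motif, among listed genes whose promoter was found by symbol. Alternatives were another value added before the logarithm, other filters, equal array medians, quantile normalization, no variance trend, array weights, only the EGF and vector arrays, a replicate block, and each array left out in turn.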

Additional observations from a re-analysis of the deposited data

How the results depend on the processing

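Over the 19 alternatives no called named gene changed sign. List medians near 0 did change sign, among them those of MAP kinase phosphatases (-0.05, from -0.22 to 0.83), mitosis genes (0.11, from -0.04 to 0.23), TGF-beta genes (0.08, from -0.03 to 0.21) and Notch genes (-0.16, from -0.24 to 0.24), as did the balance of calls, from 4234 higher and 5211 lower probe sets to 5601 and 3246 with equal array medians. Uncalled genes such as ATF3 (-0.39 to 0.01) also crossed 0. Of 409 named genes 348 were called, and 302 of these kept call and direction under every alternative that tested them, 46 lost the call under at least 1 alternative, and 13 uncalled genes gained one. Called probe sets changed at least 2-fold numbered 1699, and 2706 with 1 added to each signal and 693 with 64 added, since the added value damps dim genes. With each array left out in turn, probe sets called higher ranged from 3577 to 4313 and lower from 4015 to 5433, those of at least 2-fold from 1700 to 1849, and those above and below the arrays labelled ERBB2 from 3216 to 4001 and from 3000 to 3856. The replicate numbers did not pair the samples: the correlations of same-numbered arrays' deviations from their group means were -0.01, -0.03 and 0.02. With a replicate block 4196 probe sets were called higher, 5116 lower and 1699 at least 2-fold, and against the arrays labelled ERBB2 3910 were higher and 3708 lower. Signals near the 16 added carry little information on the size of a fold.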
